A study of Macaca mulatta with 12 samples.

Results

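The genes described are 5 that act between a protein and the peptide shown at the cell surface: PSMB8, TAP1, ERAP2, CTSS and MAMU-DQA1. Every probe set that the platform annotation gives to exactly 1 of these symbols was taken, whatever its values, which made 9 probe sets of the 52707 tested and 5 genes of the 14132 that the annotation names. CTSS has 4 probe sets, ERAP2 has 2, and PSMB8, TAP1 and MAMU-DQA1 have 1 each. RNA of whole corpora lutea from normally cycling rhesus macaques was hybridised to 1-colour Affymetrix arrays, 1 array per corpus luteum. The corpus luteum is the progesterone-secreting gland left in the ovary after ovulation. The 12 arrays fall into 3 groups of 4. Late regressed corpora lutea came from days 14 to 16 after the LH surge, from females with serum progesterone below 0.5 ng/ml. Late functional corpora lutea came from the same days, with serum progesterone above 1.5 ng/ml. Mid-late corpora lutea came from days 10 to 12, and the study names them as its baseline. No drug or genetic change is given for any group, and progesterone values of single animals were not used here. The labels call the arrays biological replicates. Values are RMA log2 intensities, so a difference of 1 is a 2-fold change, and levels of different probe sets cannot be set against each other.

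Peptides reach major histocompatibility complex (MHC) molecules by a class I and a class II route. In the class I route the proteasome cuts proteins in the cytosol, the TAP1 and TAP2 transporter carries the peptides into the endoplasmic reticulum, and the aminopeptidases ERAP1 and ERAP2 trim them to the length that class I molecules hold. In the class II route, cathepsins in endosomes cut proteins and degrade the invariant chain CD74. CD74 blocks the groove of class II molecules such as the DQ pair. Interferon-gamma raises many genes of both routes in many cell types. The corpus luteum holds macrophages and T cells beside its steroidogenic cells, and class II molecules on luteal cells themselves have been described in cattle. In the RefSeq annotation of the rhesus assembly T2T-MMU8v2.0, TAP1 lies between PSMB9 and PSMB8, PSMB8 lies between TAP1 and TAP2, and MAMU-DQA1 neighbours MAMU-DQB1. ERAP2 lies between ERAP1 and LNPEP, and CTSS lies between CTSK and HORMAD1.

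Late regressed arrays 2 and 3 stood apart from the others. The first principal component of all tested probe sets held 40.8% of the variance, and these arrays scored 93.2 and 81.6 on it, against -43.0 to 12.6 on the other 10. On late regressed array 2 the 3′ probe sets for beta-actin and for GAPDH also exceeded the 5′ ones by 2.52, a sign of RNA quality, against 0.46 to 0.70 on the other 11 arrays. The array medians ran from 4.31 to 4.43. A set of 674 probe sets with the prefix NC and no gene symbol, mostly of low signal, served as a low-signal mark, and the 95th percentile of its means was 4.64. The mean of this set was 3.48 to 3.58 on late regressed arrays, 3.53 to 3.61 on late functional arrays and 3.65 to 3.75 on mid-late arrays, so it separated mid-late from the late arrays, as the groups themselves do. Of 12 luteal steroidogenic markers 9 were measured and none was low on all arrays. Their mean level was 8.09 to 9.54 on late regressed, 9.65 to 9.91 on late functional and 9.95 to 10.18 on mid-late arrays. In whole tissue, fewer cells of a type and less RNA per cell cannot be told apart.

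The 5 genes followed different orders over the 3 groups. ERAP2 was highest in late functional corpora lutea, and its late regressed and mid-late levels did not differ beyond their spread. TAP1 and PSMB8 also had their highest means in late functional corpora lutea. Their late regressed means were the lowest, but the late regressed and mid-late arrays of each gene overlap. CTSS was at a like level in late regressed and late functional corpora lutea and lower in mid-late ones. MAMU-DQA1 was highest in late functional, intermediate and widely spread in late regressed, and lowest in mid-late corpora lutea. The limma test, adjusted over all 52707 probe sets, passed an adjusted p of 0.05 for CTSS in late regressed against mid-late and for ERAP2 in late functional against mid-late, and for no member in late regressed against late functional. The plot of the members by array shows each of these values.

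**Figure D1:**
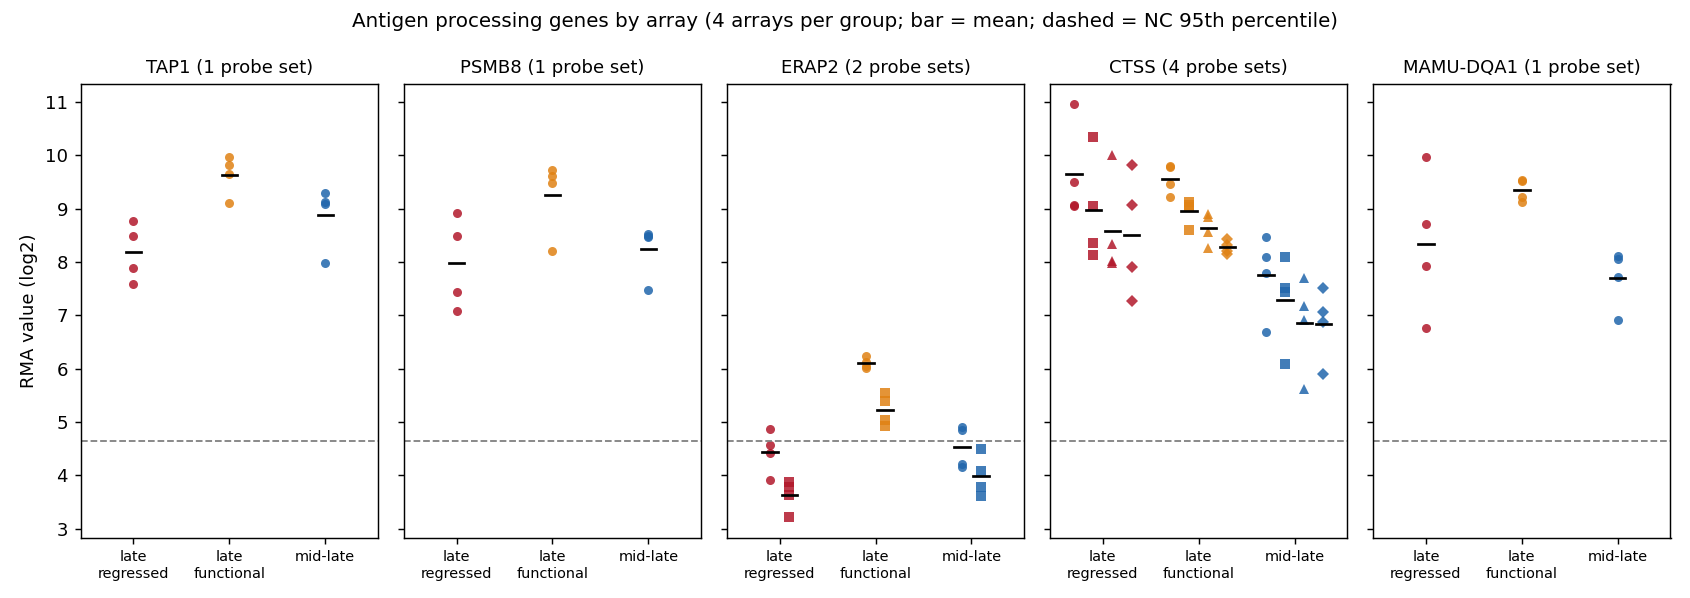
Log2 intensity of the 9 probe sets of the 5 genes on each of the 12 arrays, by group, with group means. Short bars are group means, marker shapes are probe sets and the dashed line is the low-signal mark of 4.64. On each ERAP2 probe set the late functional points lie above all its other points, and CTSS reaches 10.96 on late regressed array 3.

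PSMB8 is the subunit that replaces a standard catalytic subunit of the proteasome when cells meet interferon-gamma. Its probe set (MmugDNA.36047.1.S1_at) read 8.50, 7.44, 8.92 and 7.08 on late regressed arrays 1 to 4. It read 9.62, 9.73, 9.48 and 8.21 on late functional arrays 1 to 4, and 7.48, 8.54, 8.50 and 8.46 on mid-late arrays 1 to 4. Late functional array 4 and mid-late array 1 were the low arrays of their groups, and all 3 groups overlap. The mean was 7.99 ± 0.86 in late regressed, 9.26 ± 0.71 in late functional and 8.24 ± 0.51 in mid-late corpora lutea (SD, n = 4 each). No limma comparison passed the test for PSMB8. Late functional minus mid-late was 1.02 (SE 0.44, adjusted p = 0.243), late regressed minus late functional was -1.28 (adjusted p = 0.301), and late regressed minus mid-late was -0.26 (adjusted p = 0.735).

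TAP1 is one chain of the peptide transporter. Its probe set (MmugDNA.1081.1.S1_at) read 8.77, 7.88, 8.49 and 7.59 on late regressed arrays 1 to 4. The values were 9.97, 9.82, 9.66 and 9.10 on late functional arrays and 7.99, 9.29, 9.10 and 9.13 on mid-late arrays, in the same order. All 4 late functional values lay above all 4 late regressed values, while mid-late array 1 fell among the late regressed arrays. Group means were 8.18 ± 0.54 in late regressed, 9.64 ± 0.38 in late functional and 8.88 ± 0.60 in mid-late corpora lutea (SD, n = 4 each). Late regressed minus late functional was -1.45 (SE 0.32, 95% interval -2.16 to -0.75), a 2.74-fold lower level, with an unadjusted limma p of 0.000772 and an adjusted p of 0.160. That comparison passed the test without late regressed array 1 (-1.65, adjusted p = 0.0369). TAP1 differed by -0.69 between late regressed and mid-late (adjusted p = 0.175) and by 0.76 between late functional and mid-late (adjusted p = 0.233). Neither passed the limma test.

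ERAP2 trims the amino end of peptides in the endoplasmic reticulum, and both of its probe sets gave the same order of groups. MmuSTS.4535.1.S1_at read 4.86, 3.91, 4.42 and 4.57 on late regressed arrays 1 to 4. It read 6.04, 6.24, 6.14 and 6.01 on late functional arrays and 4.15, 4.22, 4.90 and 4.85 on mid-late arrays. The late functional arrays formed a narrow group, and its lowest array stood 1.11 above the highest mid-late array and 1.15 above the highest late regressed array. The second probe set, MmugDNA.5027.1.S1_at, read 3.64, 3.22, 3.79 and 3.87 on late regressed arrays 1 to 4. Its values were 5.04, 5.54, 4.93 and 5.40 on late functional arrays and 3.61, 3.79, 4.5 and 4.09 on mid-late arrays. Again no late functional value overlapped another group. On the first probe set the mean was 4.44 ± 0.40 in late regressed, 6.11 ± 0.10 in late functional and 4.53 ± 0.40 in mid-late corpora lutea (SD, n = 4 each). The low-signal mark of 4.64 was not passed by 3 late regressed and 2 mid-late arrays of the first probe set, nor by any late regressed or mid-late array of the second. Every late functional array passed it.

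ERAP2 rose in late functional corpora lutea against mid-late ones by 1.58 (SE 0.21, 95% interval 1.12 to 2.04, 2.98-fold, limma adjusted p = 0.0195) on MmuSTS.4535.1.S1_at. On MmugDNA.5027.1.S1_at it rose by a measured 1.23 (SE 0.21, adjusted p = 0.0358). All 4 mid-late and all 4 late regressed values of that probe set lie at or below the low-signal mark, so its fold is given only against the mark, as late functional at least 1.50-fold higher than either group. These were the only 2 of the 9 member probe sets called in that comparison, beside 0.332% of all tested probe sets called higher. The first call was lost without mid-late array 1 (adjusted p = 0.0540) or 2 (0.0553) or late functional array 1 (0.0571), 2 (0.0823) or 3 (0.0873). The second was lost without mid-late array 1, 2 or 4 or any single late functional array, with adjusted p of 0.0528 to 0.107. Late regressed arrays 2 and 3 were not needed for it, since without them the adjusted p of the first probe set was 0.00517. Late regressed against late functional, the difference was -1.67 (SE 0.21, 95% interval -2.13 to -1.21, 3.17-fold) on the first probe set and a measured -1.60 on the second, each with a limma adjusted p of 0.0506. The call depended on the setting: the first was called in 8 of 24 alternative settings, among them without late functional array 4 (0.0246), late regressed array 1 (0.00514) or late regressed array 4 (0.0322). Without late regressed arrays 2 and 3 together they were -1.39 and -1.47 (adjusted p = 0.118 each), beside -1.46 for TAP1 (0.409). Late regressed minus mid-late was -0.090 (adjusted p = 0.808) and -0.37 (0.258). The late regressed and mid-late means of the first probe set, 4.44 and 4.53, also lie below the low-signal mark of 4.64. Low signal therefore limits its 2.98-fold and 3.17-fold values too.

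CTSS, cathepsin S, is an endosomal protease that cuts the invariant chain bound to class II molecules. Its probe set with the highest mean, called the main CTSS probe set here, read 9.06, 9.51, 10.96 and 9.06 on late regressed arrays 1 to 4. It read 9.78, 9.46, 9.80 and 9.22 on late functional arrays and 6.68, 8.09, 8.47 and 7.80 on mid-late arrays. All 8 late arrays lay above all 4 mid-late arrays, late regressed array 3 was the highest of the series and mid-late array 1 the lowest. The other 3 probe sets followed it, with Pearson correlations of 0.939 to 0.990 between the 6 pairs of probe sets over the 12 arrays, which share their groups. On MmuSTS.3988.1.S1_at late regressed array 4, at 7.26, fell below mid-late array 3, at 7.51, so these groups overlap there. MmugDNA.24863.1.S1_at ran from 8.13 to 10.35 on late regressed, 8.60 to 9.13 on late functional and 6.09 to 8.09 on mid-late arrays. On the other 2 the late regressed arrays also stood above all mid-late arrays.

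CTSS rose in late regressed corpora lutea on all 4 probe sets, by 1.88 on the main one (SE 0.44, 95% interval 0.93 to 2.84, 3.69-fold, limma adjusted p = 0.0249). The mean was 9.65 ± 0.90 in late regressed, 9.56 ± 0.28 in late functional and 7.76 ± 0.77 in mid-late corpora lutea (SD, n = 4 each). The other probe sets rose by 1.68 to 1.73, with adjusted p of 0.0438 to 0.0482. These 4 were the only members called of the 9 in that comparison, where 5.41% of all tested probe sets were called higher, and they measure 1 gene. Without late regressed arrays 2 and 3 together the differences were 0.75 to 1.3, and none passed the test (adjusted p = 0.0999 to 0.255). The call on the main probe set was also lost without mid-late array 1 (1.52, adjusted p = 0.0593) or mid-late array 2 (1.99, 0.0502). Of the 12 fits that left out 1 array, the other probe sets were called in 3, 3 and 2. All 3 were called without late regressed array 1 or 4, MmugDNA.24863.1.S1_at and the other probe set of the Mmu prefix also without mid-late array 3, and none without any other single array. CTSS differed by 1.45 to 1.80 between late functional and mid-late corpora lutea, on 4 probe sets whose groups did not overlap, with adjusted p of 0.0740 to 0.146. All 4 passed the test when only those groups were fitted, with array weights, or without late regressed arrays 2 and 3. Late regressed minus late functional was 0.083 on the main CTSS probe set (95% interval -0.88 to 1.04, adjusted p = 0.974).

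MAMU-DQA1 encodes the alpha chain of the class II molecule DQ. Its probe set, MmugDNA.15798.1.S1_s_at, is of a type that shares probes with similar transcripts, so its target is uncertain. It read 8.71, 6.76, 9.98 and 7.93 on late regressed arrays 1 to 4. It read 9.52, 9.22, 9.55 and 9.13 on late functional arrays and 6.91, 8.12, 8.07 and 7.73 on mid-late arrays. Late functional arrays again formed a narrow group, above all mid-late arrays by at least 1.01, while late regressed arrays spread from below to above both. The mean was 8.34 ± 1.35 in late regressed, 9.35 ± 0.21 in late functional and 7.71 ± 0.56 in mid-late corpora lutea (SD, n = 4 each). Late functional minus mid-late was 1.65 (95% interval 0.49 to 2.81, 3.14-fold, limma adjusted p = 0.137). It passed the test with only these groups fitted (adjusted p = 0.0122), with array weights (0.0227) and without late regressed arrays 2 and 3 (0.0141). Late regressed minus mid-late was 0.64 (adjusted p = 0.448), and late regressed minus late functional was -1.01 (adjusted p = 0.502).

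**Figure D2:**
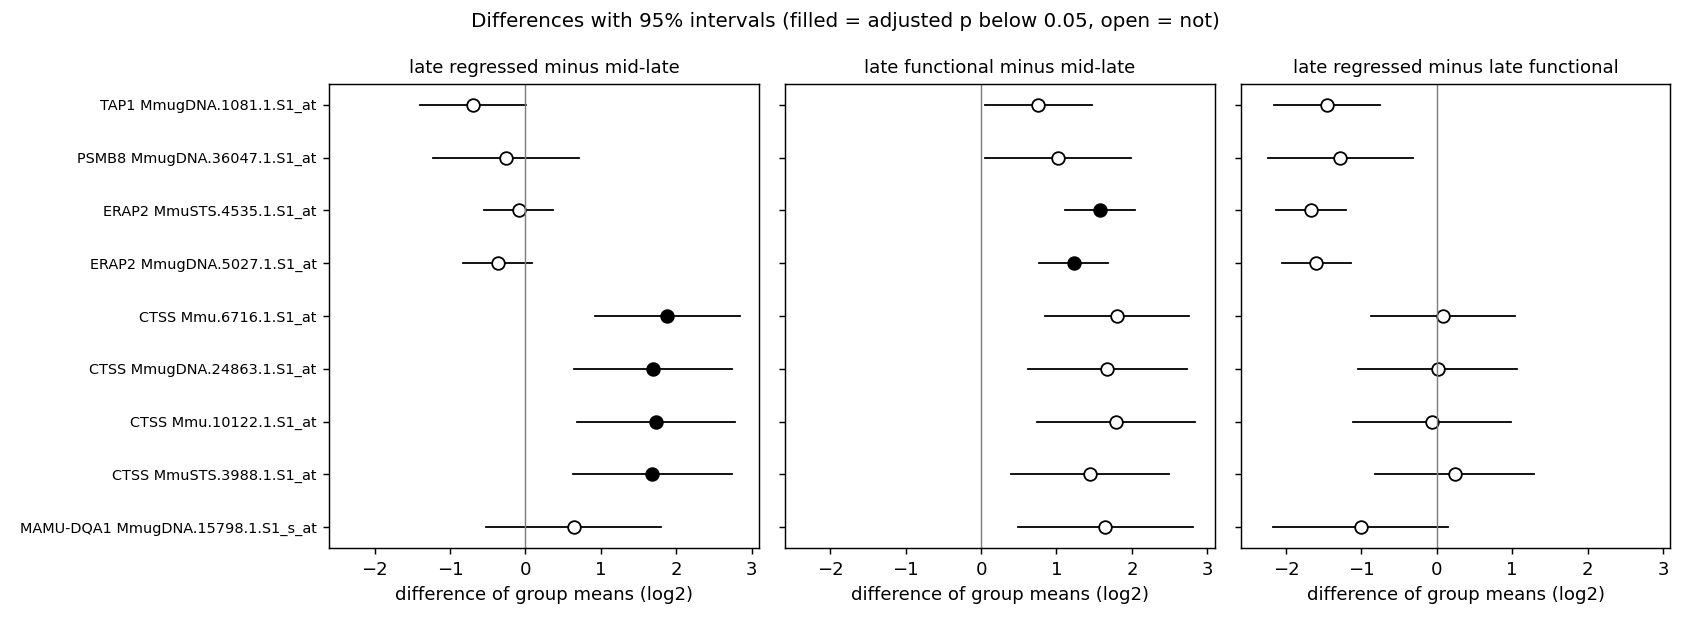
Difference of group means in log2 with its 95% interval for each of the 9 probe sets in the 3 comparisons. Late functional minus mid-late is above 0 for all 9, while late regressed minus mid-late is clearly above 0 only for the 4 CTSS probe sets.

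Markers of several other cell types differed between the groups too. Of 16 macrophage markers 14 were measured, none low on all arrays, and their mean level was 7.54 to 9.27 on late regressed, 8.35 to 8.46 on late functional and 6.44 to 8.11 on mid-late arrays. Late regressed array 3, the highest for CTSS and MAMU-DQA1, was also the highest for these markers, and mid-late array 1, the lowest for CTSS, was the lowest. On late regressed array 2 the macrophage markers lay 1.06 above the mid-late mean, and the class II genes were divided. Its MAMU-DQA1 value of 6.76 was the lowest of the 12 arrays. CD74, at 9.46, and MAMU-DOA, at 6.07, lay below their mid-late means of 9.95 and 6.33. On the same array MAMU-DRA (11.26), MAMU-DPA (10.18), MAMU-DMA (8.90) and MAMU-DQB1 (7.17) lay above theirs (10.37, 8.98, 7.67 and 6.46). In late regressed against mid-late 11 of the 14 macrophage markers were positive and 1, CYBB, a subunit of the phagocyte oxidase, was called (2.56, adjusted p = 0.0472). The macrophage markers C1QA (-0.68), C1QC (-0.52) and C1QB (-0.08) were negative and not called. In late functional against mid-late 13 of the 14 were positive and none called. Of 11 dendritic cell markers 10 were measured, and CLEC9A, XCR1, CLEC10A, FCER1A, FLT3 and LAMP3 were low on all arrays. For B cells MS4A1 and BLK were low on all arrays, and for neutrophils S100A12, CSF3R and ELANE. Of the 7 neutrophil markers measured 3 were positive in late regressed against mid-late, and 1, S100A8, was called higher (2.40, adjusted p = 0.0233). The mean of the 7 was 4.07 to 5.20 on late regressed, with array 3 highest, 4.08 to 4.36 on late functional and 4.07 to 4.33 on mid-late arrays. T and natural killer cell markers were at 6.62 to 7.35 on late regressed, 6.86 to 7.03 on late functional and 6.83 to 7.15 on mid-late arrays. In late regressed against mid-late 3 of the 7 measured were positive. Of these 1, GNLY, a granule protein of cytotoxic cells, was called higher (1.71, adjusted p = 0.0257), while GZMB differed by -0.96 (adjusted p = 0.357). In the same comparison 4 of 11 endothelial markers (TEK, CLDN5, ERG and SOX17) and 4 of 9 fibroblast markers (DCN, DPT, FBLN1 and COL14A1) were called higher, and the fibroblast marker THY1 lower. Positive differences were seen for 9 of the endothelial markers. The fibroblast markers COL1A1, COL1A2, COL3A1 and LUM were negative and not called. Over all genes, with 1 probe set per gene, 7.6% were called higher in this comparison. The part of these cells, and of the NC set, in the results was not tested. When the NC mean entered the fit, no member and no other tested probe set was called against mid-late. The NC mean separates mid-late from the late arrays as the groups do, so that fit is no test of the members.

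Seen as a list, all 9 probe sets had an unadjusted p below 0.05 and a higher mean in late functional than in mid-late corpora lutea, against 7.19% of all tested probe sets, and 7 of the 9 did not overlap between these groups, against 7.68%. Their median difference was 1.58, against -0.02 over all probe sets. The 9 probe sets measure 5 genes, CTSS and ERAP2 more than once, so they are not independent counts. The genes were also chosen with earlier results of these data known, and an excess over the background was not tested. In late regressed against mid-late 5 of 9 differences were positive, with a median of 0.64 against -0.04, and 3 of 9 did not overlap, against 7.99% of all tested probe sets. In late regressed against late functional 6 of 9 were negative, with a median of -1.01 against 0.00, and none was called, beside 0.0019% of all tested probe sets, a single one. There 4 had an unadjusted p below 0.05 and were lower, against 5.45% of all, and TAP1 and both ERAP2 probe sets did not overlap, against 2.47%. The comparisons share their arrays, so their values are given side by side only.

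**Figure D3:**
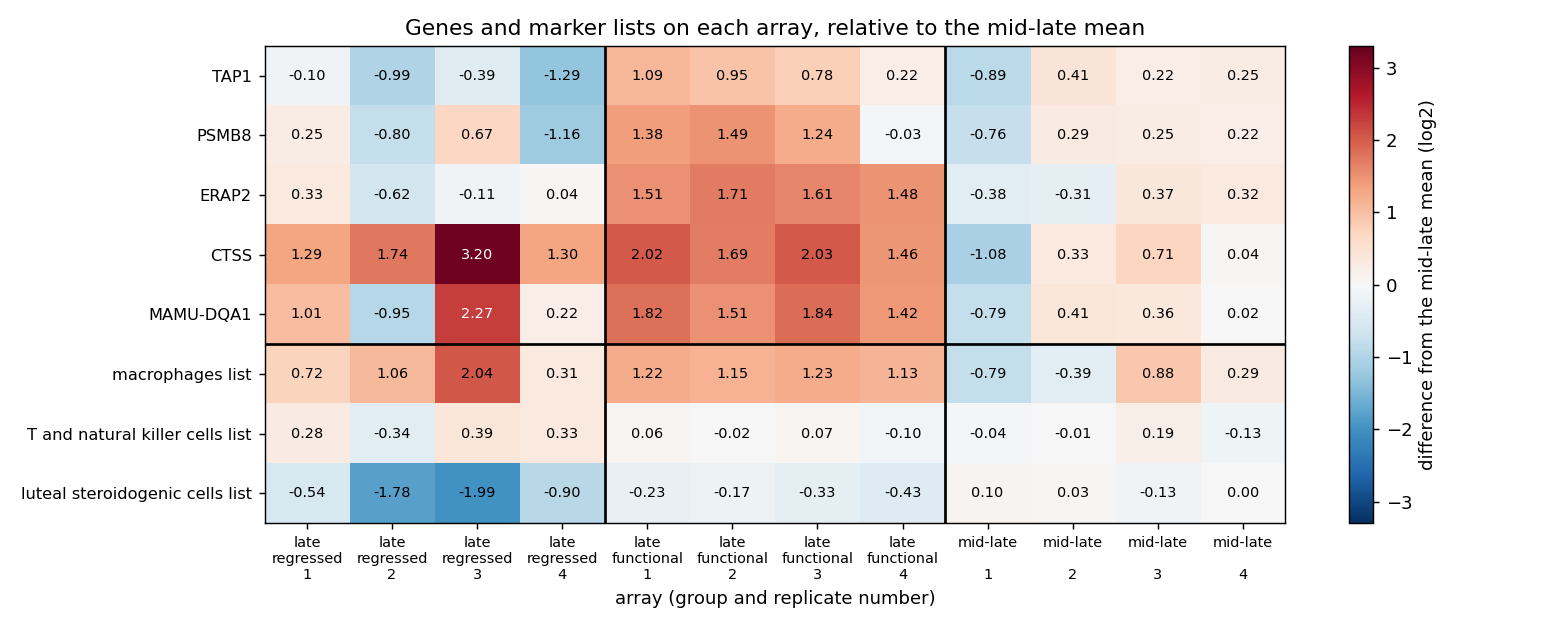
Level of each gene on each of the 12 arrays as the log2 difference from the mid-late mean, with 1 probe set per gene and 3 marker lists below. CTSS is 1.29 to 3.20 above that mean on the late regressed arrays and ERAP2 -0.62 to 0.33.

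Across the 12 arrays, which share groups and so are no independent points, TAP1 and PSMB8 followed each other most closely (Pearson r = 0.914, and 0.904 after subtracting group means). PSMB8 and MAMU-DQA1 had r = 0.783, CTSS and MAMU-DQA1 0.726, and TAP1 and CTSS 0.197. After subtracting group means, these pairs had r = 0.743, 0.707 and 0.596, in the same order. ERAP2 and CTSS had r = 0.354, and 0.147 within groups. By the highest correlation, given in parentheses, over the 12 arrays the 3 nearest genes of TAP1 were PSMB10 (0.957), PSMB2 (0.925) and ISG15 (0.920). PSMB10 is another interferon-inducible proteasome subunit, PSMB2 a standard one, and ISG15 an interferon-induced ubiquitin-like protein. For PSMB8 they were TNFSF13B, a B cell survival cytokine (0.946), PSME2, a subunit of the proteasome activator (0.932), and TSPO, a mitochondrial membrane protein (0.931). For ERAP2 they were TIRAP, an adaptor of Toll-like receptors (0.949), SEC22B, a vesicle fusion protein (0.937), and CACNB2, a calcium channel subunit (0.922). For CTSS they were the lysosomal mannosidase MAN2B1 (0.965), the class II chain MAMU-DRA (0.964) and the interferon-inducible NMI (0.958). MAMU-DQA1 was nearest to PARM1 (0.932), GLRX, a glutaredoxin (0.932), and CD74 (0.931).

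Other genes of the same steps were taken from 6 lists, with 1 probe set per gene, the one of highest mean. Values in parentheses after a difference are limma adjusted p over all 52707 probe sets. Among the 14 other class I loading genes, none was called in late regressed against mid-late, with a median of 0.07. In late functional against mid-late 1 was called, MAMU-I, with a difference of 1.18 (limma adjusted p = 0.0483). The background for 1 probe set per gene was 7.6% called higher in late regressed and 0.58% in late functional against mid-late. MAMU-I is a class I gene whose probe set is open to related transcripts, and its call was lost in 9 of 12 fits without 1 array. TAP2, the partner of TAP1, read 7.45, 7.43, 7.62 and 7.40 on late regressed arrays, 8.39, 8.29, 8.16 and 7.63 on late functional arrays and 7.59, 7.45, 7.5 and 7.55 on mid-late arrays. Late functional TAP2 lay above the others on every array, though array 4, at 7.63, barely passed late regressed array 3, at 7.62. The difference was 0.59 against mid-late (adjusted p = 0.0667) and -0.64 for late regressed against late functional (0.152). The other TAP2 probe sets, with group means below the low-signal mark, differed by -0.05 (0.717) and -0.13 (0.555) in late functional against mid-late. TAPBP, the tapasin that bridges the transporter and class I, differed from mid-late by 0.50 in late regressed (0.275) and 0.59 in late functional corpora lutea (0.307). The other TAPBP probe sets differed by -0.34 (0.440) and -0.05 (0.878) in late regressed, and 0.15 (0.809) and 0.16 (0.665) in late functional ones. B2M, the light chain of class I, differed by 0.10 in late regressed (0.355) and 0.19 in late functional corpora lutea (0.166). PDIA3, a disulphide isomerase of the loading complex, differed by 0.05 in late regressed against mid-late (0.757).

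The immunoproteasome list had 6 other measured genes, and none was called in any comparison. In late regressed against mid-late all 6 were negative, with a median of -0.28. PSMB10 differed by 0.65 in late functional against mid-late (adjusted p = 0.0983), -0.33 in late regressed against mid-late (0.246) and -0.98 in late regressed against late functional (0.110). PSME2 differed by 0.40 in late functional against mid-late (0.408) and by -0.40 in late regressed against late functional (0.577). The standard catalytic subunits PSMB5, PSMB6 and PSMB7 differed from mid-late by -0.03 to 0.03 in late functional corpora lutea (0.905 to 0.918). In late regressed ones they differed by -0.31 to -0.15 (0.143 to 0.309).

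Of the 7 other trimming peptidases, 2 were called higher in late regressed against mid-late and 1 in late functional against mid-late. ERAP1, the neighbour and partner enzyme of ERAP2, rose by 0.86 in late regressed corpora lutea (limma adjusted p = 0.0160), stayed called whichever single array was left out, and its second probe set was called too. Without late regressed arrays 2 and 3 together it was at 0.51 (0.0662). ERAP1 read 7.65, 8.47, 8.47 and 7.88 on late regressed arrays, 7.87, 8.21, 8.03 and 8.03 on late functional arrays and 7.04, 7.33, 7.28 and 7.40 on mid-late arrays, so all late arrays lay above the mid-late ones. Late functional minus mid-late was 0.77 (adjusted p = 0.0622), with the second probe set called at 1.15 (0.0254). Late regressed minus late functional was 0.085 for ERAP1 (0.920), beside -1.67 for ERAP2. The difference between these genes was not tested. BLMH, a cytosolic cysteine aminopeptidase, rose by 0.24 in late regressed corpora lutea (0.0376) and NLN, a metallopeptidase, by 0.61 in late functional ones (0.0477). Each of those calls was lost in at least 9 of 12 fits without 1 array. LNPEP, the other neighbour of ERAP2 and an endosomal aminopeptidase, differed from mid-late by 0.27 in late regressed (0.222) and 0.57 in late functional corpora lutea (0.0743).

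The list of endosomal proteases and inhibitors, which also holds other lysosomal enzymes, had the most calls of the 6 lists in late regressed against mid-late. Besides CTSS, 5 of 16 rose in late regressed against mid-late, none fell, and 14 of 16 differences were positive, with a median of 0.65 against -0.02 over all genes. The 5 were CTSK, a collagen-cutting cathepsin (2.32, adjusted p = 0.0179), IFI30, a thiol reductase that unfolds antigens (1.99, 0.0307), LGMN, an asparaginyl endopeptidase (1.20, 0.0393), CTSH, an aminopeptidase cathepsin (1.04, 0.0375), and ASAH1, the lysosomal acid ceramidase (0.99, 0.0203). CTSK, the neighbour of CTSS, read 9.42, 11.15, 11.66 and 10.10 on late regressed, 9.63, 9.63, 11.07 and 9.33 on late functional and 7.76, 8.02, 8.53 and 8.76 on mid-late arrays. CTSL, another invariant chain protease, differed by 1.34 (0.0544). In late functional against mid-late none of the 16 was called, although 15 were positive, with a median of 0.49. Without late regressed arrays 2 and 3 none of the 5 passed the test: CTSK was at 1.50, IFI30 at 1.13 (0.0773), LGMN at 0.72 (0.191), CTSH at 0.46 (0.175) and ASAH1 at 0.77 (0.106). Leaving out mid-late array 1 also ended all 5 calls, and mid-late array 2 those of CTSK (0.0504), IFI30 (0.0765), LGMN (0.0837) and CTSH (0.0947). Of the 12 fits without 1 array, ASAH1 was called in 11, CTSK in 10, IFI30 in 9, LGMN in 4 and CTSH in 3. IFI30 was also lost without late regressed array 2 (0.0526). LGMN and CTSH were also lost without mid-late array 4, late functional array 1, 2 or 3 or late regressed array 2 or 3, and CTSH without mid-late array 3, with adjusted p of 0.0531 to 0.0879. The part of macrophages or other cells in these differences was not tested either.

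Of the 9 other class II genes, 8 were positive in late regressed and 9 in late functional against mid-late, with medians of 0.75 and 0.84. With the probe set of highest mean per gene, the 1 gene called was MARCHF8, a ubiquitin ligase that removes class II molecules from the surface. It differed from mid-late by 0.72 in late regressed (adjusted p = 0.00690) and 0.54 in late functional corpora lutea (0.0421). The other MARCHF8 probe set, with group means below the low-signal mark, differed by -0.002 (0.995) and -0.05 (0.877). MAMU-DRA, the DR alpha chain, read 11.33, 11.26, 12.69 and 11.36 on late regressed, 11.88, 11.74, 11.85 and 11.79 on late functional and 9.22, 10.41, 11.17 and 10.69 on mid-late arrays. It differed from mid-late by 1.28 in late regressed (0.0569) and 1.44 in late functional corpora lutea (0.0937). A further MAMU-DRA probe set was called in late regressed corpora lutea, at 1.88 (0.0347). The peptide exchange chain MAMU-DMA differed by 1.06 in late regressed (0.0862) and 1.54 in late functional corpora lutea (0.0734). Both other MAMU-DMA probe sets were called in late regressed corpora lutea, at 1.01 (0.0351) and 1.53 (0.0267), and the first of them in late functional ones, at 1.49 (0.0363). CD74 differed by 0.75 in late regressed (0.214) and 1.35 in late functional corpora lutea (0.107). The part of macrophages in these class II differences was not tested.

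Of the 17 regulators, NFYB and IRF1 were called higher in both late groups. NFYB, a subunit of a factor that binds class II promoters, rose by 0.99 in late regressed (0.00548) and 0.69 in late functional corpora lutea (0.0365). None of its other probe sets was called. They differed from mid-late by 0.25 to 0.67 in late regressed (0.0934 to 0.374) and 0.06 to 0.29 in late functional corpora lutea (0.277 to 0.892). IRF1, an interferon-induced transcription factor, rose by 0.98 in late regressed (0.0247) and 1.35 in late functional corpora lutea (0.0358), and read 7.75 to 7.77 on all late functional arrays. NLRC5, the activator of class I genes, differed by -0.09 in late regressed (0.845) and 0.76 in late functional against mid-late (0.139). CIITA, the activator of class II genes, had a low signal and differed by -0.30 in late regressed (0.0847) and -0.19 in late functional corpora lutea (0.342). Without late regressed arrays 2 and 3 only MARCHF8 and NFYB of the called pathway genes kept their late regressed calls. Those 2 also held without any single array, while the IRF1 call was lost without mid-late array 1 (0.0667) or 2 (0.0604). The late functional calls of MARCHF8, NFYB and IRF1 were lost without any single mid-late or late functional array (0.0516 to 0.114).

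**Figure D4:**
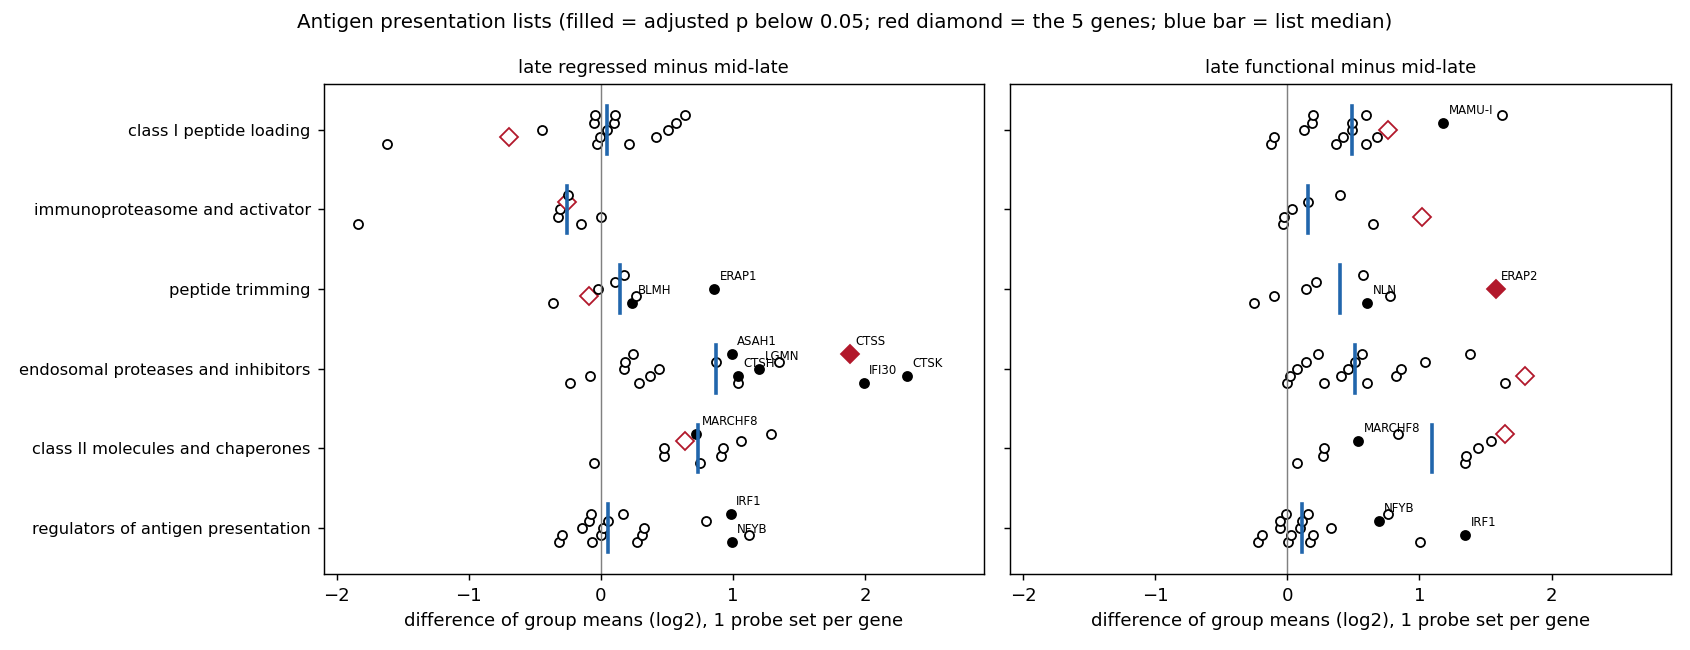
Differences of group means in log2 for the genes of the 6 lists, 1 probe set per gene, in late regressed minus mid-late and late functional minus mid-late, with called genes filled and the 5 genes as diamonds. Blue bars are list medians. CTSK at 2.32 and IFI30 at 1.99 are the largest called differences in late regressed corpora lutea.

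**Figure D5:**
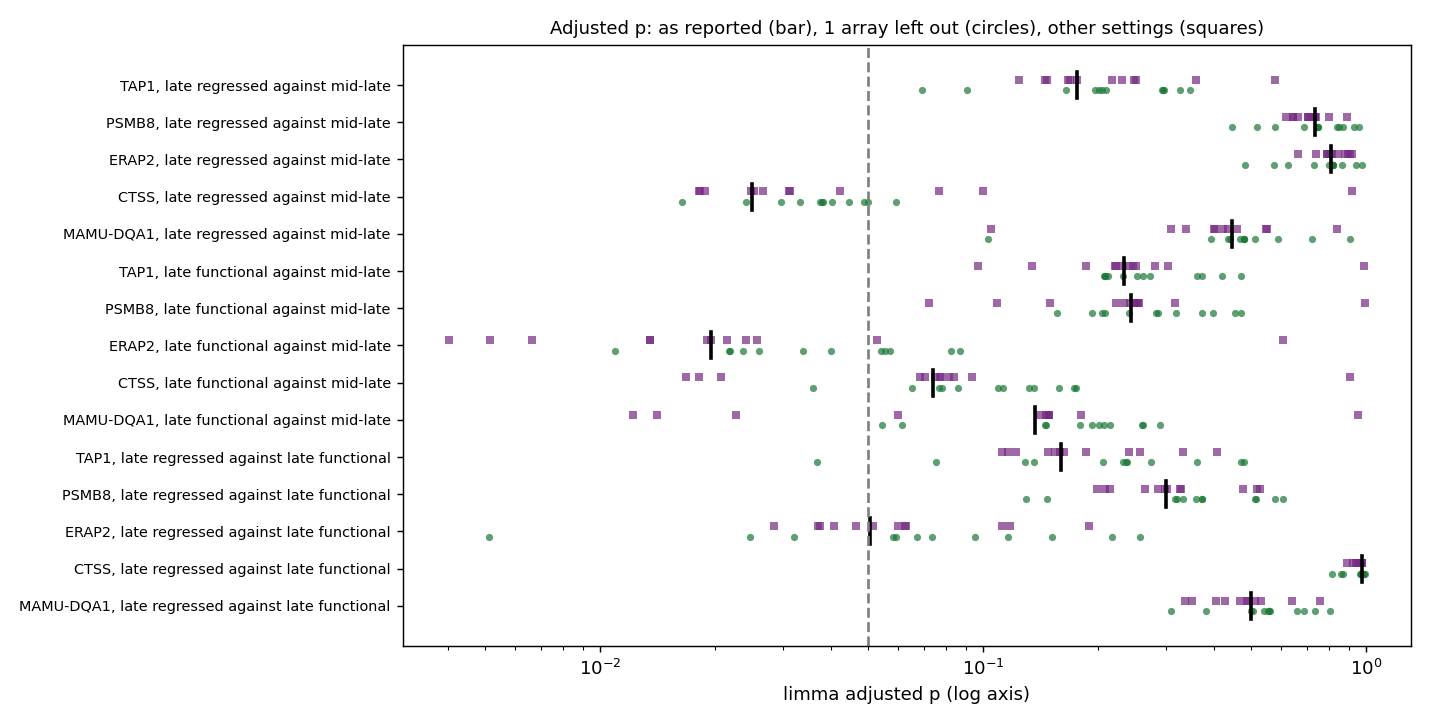
Limma adjusted p on a log axis for 1 probe set of each gene in the 3 comparisons, as reported (bar), with 1 array left out (circles) and under other settings (squares), with a dashed line at 0.05. Only CTSS in late regressed against mid-late and ERAP2 in late functional against mid-late have their bars left of the line.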

How the data were processed

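The deposited values are log2 intensities of 52865 probe sets on 12 arrays, which the authors made with RMA, per the submitters' processing notes; no source used here gives its version or scan batches. Leaving out 158 array controls kept 52707 probe sets, of which 24956 had exactly 1 symbol in the platform annotation, 361 several and 27390 none. Symbols were looked up by Entrez ID for 24616 and 0 changed. The values were used as deposited.

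Groups came from the sample titles. Group means were compared with limma 3.58.1 (lmFit and eBayes) in R 4.3.3, in a single fit of all 12 arrays, with Benjamini-Hochberg adjustment over 52707 probe sets and a call at an adjusted p of 0.05. With 4 arrays per group, their number limits the precision, and p-values measure the spread between these arrays. The fit was tested on simulated data. Figures were drawn with Python 3.11.15 and matplotlib 3.10.9.

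Every member probe set is named. From the lists, fixed genes were named where they had a probe set, with up to 6 further called members per list. For each member, its 3 most correlated genes above the low-signal mark were named. CALR, PSMB9, PSME1 and CTSB are not analysed here. The members and lists were chosen with earlier results of these data known. The alternatives were scaling, filters on low signal, probe set type, a trended robust prior, fitting only the groups compared, a replicate block, array weights, covariates for 3′ to 5′ difference and the NC mean, and left-out arrays.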

Additional observations from a re-analysis of the deposited data

Results flagged for a closer look

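In 4 cases a value stood far from the other 3 arrays of its group, by the gap to the nearest array divided by the range of the group, which passed Dixon's 95% critical value for 4 arrays. On TAP1, mid-late array 1 was at 7.99, with the next at 9.10 (ratio 0.849). On PSMB8, mid-late array 1 was at 7.48, with the next at 8.46 (0.931), and late functional array 4 was at 8.21, with the next at 9.48 (0.835). On 1 of the 4 CTSS probe sets, late regressed array 3 was at 10.00, with the next at 8.33 (0.830). In all, 27 groups of 4 values were examined, and chance flags about 1 in 20.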

How the results depend on the processing

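The counts of called probe sets moved with the processing. For late regressed against mid-late, the 4 member calls became 1 after renewed quantile normalization and with array weights, 2 with a trended robust prior and with the 3′ to 5′ covariate, and 0 with only the groups compared, with the NC mean as a covariate, and without late regressed arrays 2 and 3 together. They ranged from 0 to 4 with 1 array left out. Over all probe sets 5282 became 1620 with only these groups, 2839 with array weights, 0 with the NC covariate and 975 without late regressed arrays 2 and 3 (2050 to 7532 with 1 array left out). The 11 called pathway genes include the member CTSS. They became 4, 7, 0 and 2 in those settings, and 22 when every probe set was counted (3 to 17).

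For late functional against mid-late, the 2 member calls became 1 with either filter on low signal, 7 with only these groups, with array weights, or without late regressed arrays 2 and 3, and 0 with the NC covariate (0 to 4 with 1 array left out). The 470 calls over all probe sets became 107 above the median, 72 above the NC mark, 2682 with only these groups, 3106 with array weights, 883 with the 3′ to 5′ covariate, 0 with the NC covariate and 2417 without late regressed arrays 2 and 3 (4 to 1008). The 6 called pathway genes include the member ERAP2. They became 2 after quantile normalization and with either filter. They became 23, 22 and 22 with only these groups, array weights and without those arrays, and 0 with the NC covariate (0 to 9).

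For late regressed against late functional, the 0 member calls by limma (4 at an unadjusted p below 0.05) became 1 with either filter and with array weights, and 2 with a trended robust prior and the NC covariate (0 to 3). The 1 call over all probe sets became 2 after median centring, 5 after quantile normalization and with the NC covariate, 10 with either filter, 15 with the robust prior, 11 with array weights and 0 with only these groups, the 3′ to 5′ covariate, or without late regressed arrays 2 and 3 (0 to 924). The 0 pathway genes became 1 with either filter, the robust prior, array weights or the NC covariate (0 to 4).

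Same-numbered arrays deviated together with correlations of -0.12 to 0.30, above 0.1 in 3 of 12, so they share only a number. With the replicate block the member, all and pathway counts were 4, 4349 and 11 for late regressed against mid-late, 0, 4 and 0 in the late functional comparison with mid-late, and 0, 0 and 0 for late regressed against late functional.

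Differences near 0 changed sign. ERAP2 on MmuSTS.4535.1.S1_at in late regressed against mid-late turned to 0.041 with the 3′ to 5′ covariate and 0.19 without late regressed arrays 2 and 3. With the NC covariate, which separates mid-late from the late arrays by its own values, late regressed minus mid-late was -0.23, -0.16 and -0.050 on 3 CTSS probe sets and -0.85 on MAMU-DQA1, and late functional minus mid-late was -0.073 on PSMB8 and -0.022 on CTSS MmuSTS.3988.1.S1_at. CTSS in late regressed against late functional turned to -0.11, -0.22 and -0.042 with array weights, -0.16, -0.28 and -0.028 with the NC covariate and -0.50, -0.72 and -0.69 without late regressed arrays 2 and 3 on the main probe set, MmugDNA.24863.1.S1_at and MmuSTS.3988.1.S1_at, and to 0.058 with the 3′ to 5′ covariate on the remaining one. With 1 array left out it ran from -0.36 to 0.28, -0.45 to 0.29, -0.53 to 0.14 on the remaining one and -0.20 to 0.66. In late regressed against mid-late, ERAP2 ran from -0.23 to 0.086 and PSMB8 from -0.57 to 0.043. The cause was not tested.

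Higher calls made up 54.0% of those in late regressed against mid-late, but 67.6% once arrays were median centred and 45.4% once quantile normalized. In late functional against mid-late these were 37.2%, 56.2% and 25.2%. Low signal limits ERAP2, most of whose late regressed and mid-late values lie at or below the NC mark, and the number of arrays limits every value.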
